A study of Papio anubis and Macaca mulatta with 6 samples.

Results

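The genes described here are 7 candidate secreted and surface proteins of Sertoli cells, namely APOA1, SERPINA5, PRND, CLU, CST3, ENHO and AARD. They are a list of names, found by symbol among the genes listed for each species. The list was chosen with earlier results of these data known. Counts of members called below thus describe the list and are not an independent test of it. Of these 7, 5 were among the 34178 genes listed for the baboon (APOA1, SERPINA5, PRND, ENHO and AARD) and 6 were among the 21356 genes listed for the rhesus macaque (APOA1, SERPINA5, PRND, CLU, CST3 and AARD). CLU and CST3 were not analysed here in the baboon, and ENHO was not analysed here in the rhesus macaque.

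Sertoli cells line the seminiferous tubules, surround and nourish the germ cells, and release proteins into the tubule fluid and toward the interstitium. Immature Sertoli cells are known for making anti-Müllerian hormone (AMH), together with inhibin alpha (INHA), the transcription factor SOX9 and the signaling protein desert hedgehog (DHH), and those genes were used here to find them. The members of the list act in different ways. APOA1 is the main protein of high-density lipoprotein and takes up cholesterol from cells, SERPINA5 (protein C inhibitor) blocks serine proteases such as protein C and plasminogen activators, and CST3 (cystatin C) blocks cysteine proteases of the cathepsin family. CLU (clusterin) is a secreted chaperone, PRND (doppel) is a membrane-anchored relative of the prion protein, and ENHO encodes the small secreted peptide adropin.

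The single-cell libraries hold cells from the digested testes of 4 immature animals, 2 baboons and 2 rhesus macaques, and the cells were not sorted. Per the labels the animals had no treatment, and no genetic change is named for any of them. Baboon 1 gave the libraries 1A and 1B, rhesus 2 gave the libraries 2A and 2B, and the other animals gave 1 library each. Chemistry version 3 (10x Genomics, 3′ ends) was used for baboon 2 and version 2 for the rest, so in the baboon the animal and the chemistry cannot be told apart. One pair of animals was a newborn and a 26-month-old and the other pair was 15 and 20 months old, but the sources disagree on which pair is the baboons, so no animal is given an age here. A wash between the digestion steps was meant to remove interstitial cells, so the shares of those cells are not compared here.

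The libraries held 16875294 to 49803025 unique molecular identifiers (UMIs, each standing for 1 captured transcript), and 57.8% to 87.5% of them lay in called cells. Most cells of baboon 2 (5766 of 7971) had fewer UMIs than the cutoff and were kept for their expression profile. Libraries 1A and 1B shared 68 cell barcodes, where chance gives 73.2, libraries 2A and 2B shared 109, where chance gives 79.6, and rhesus 1 shared 124 and 122 with them, where chance gives 121.3 and 112.0. The p-values below rest on the 2 animals of a species, except where libraries were taken as samples. Without a term for the animal, differences are set beside the spread between animals. With the animal as a block, they are set beside how much the difference between classes varied from animal to animal. The estimate of spread is also shared over genes and, in the joint fit, over classes.

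Cells were clustered in each species with the 7 members left out of the clustering. A cluster is called Sertoli-like where AMH, INHA, SOX9 and DHH scored best among the marker lists. At least 3 of them had to reach 0.25 of their highest level over clusters, with a UMI in a share of 0.05 of its cells or more. In the baboon, 17449 cells in 6 clusters were Sertoli-like, which was 85.0% of the cells of baboon 1 and 56.5% of those of baboon 2. In the rhesus macaque, 8205 cells in 2 clusters were Sertoli-like, or 36.5% and 26.8% of the cells of rhesus 1 and rhesus 2. The 4 defining genes summed to 7905 and 8567 CPM (UMIs of a gene scaled to a total of 1e6 UMIs in the class) in baboon Sertoli-like cells and to 8719.9 and 9970.2 CPM in those of the rhesus macaque, with all 4 found in both species. Lists of markers of other cell types summed to much less there. The endothelial list (8 of 8 genes found) summed to 3.53 and 4.19 CPM in Sertoli-like cells of the baboons and 7.27 and 28.8 CPM in those of the rhesus macaques, and the macrophage list (10 of 11 found in each species) to 13.0 and 16.1 CPM and to 39.6 and 28.5 CPM. The interstitial stroma list was higher, at 70.8 and 350.1 CPM in the baboon (10 of 10 found) and 745.4 and 633.7 CPM in the rhesus macaque (9 of 10 found). The Leydig list (5 of 7 found in each species) was at 205.6 and 238.2 CPM in the baboon and 333.4 and 264.5 CPM in the rhesus macaque. All lists not named here were at 357.8 CPM or less, the highest being rete epithelium in rhesus 2.

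**Figure D1:**
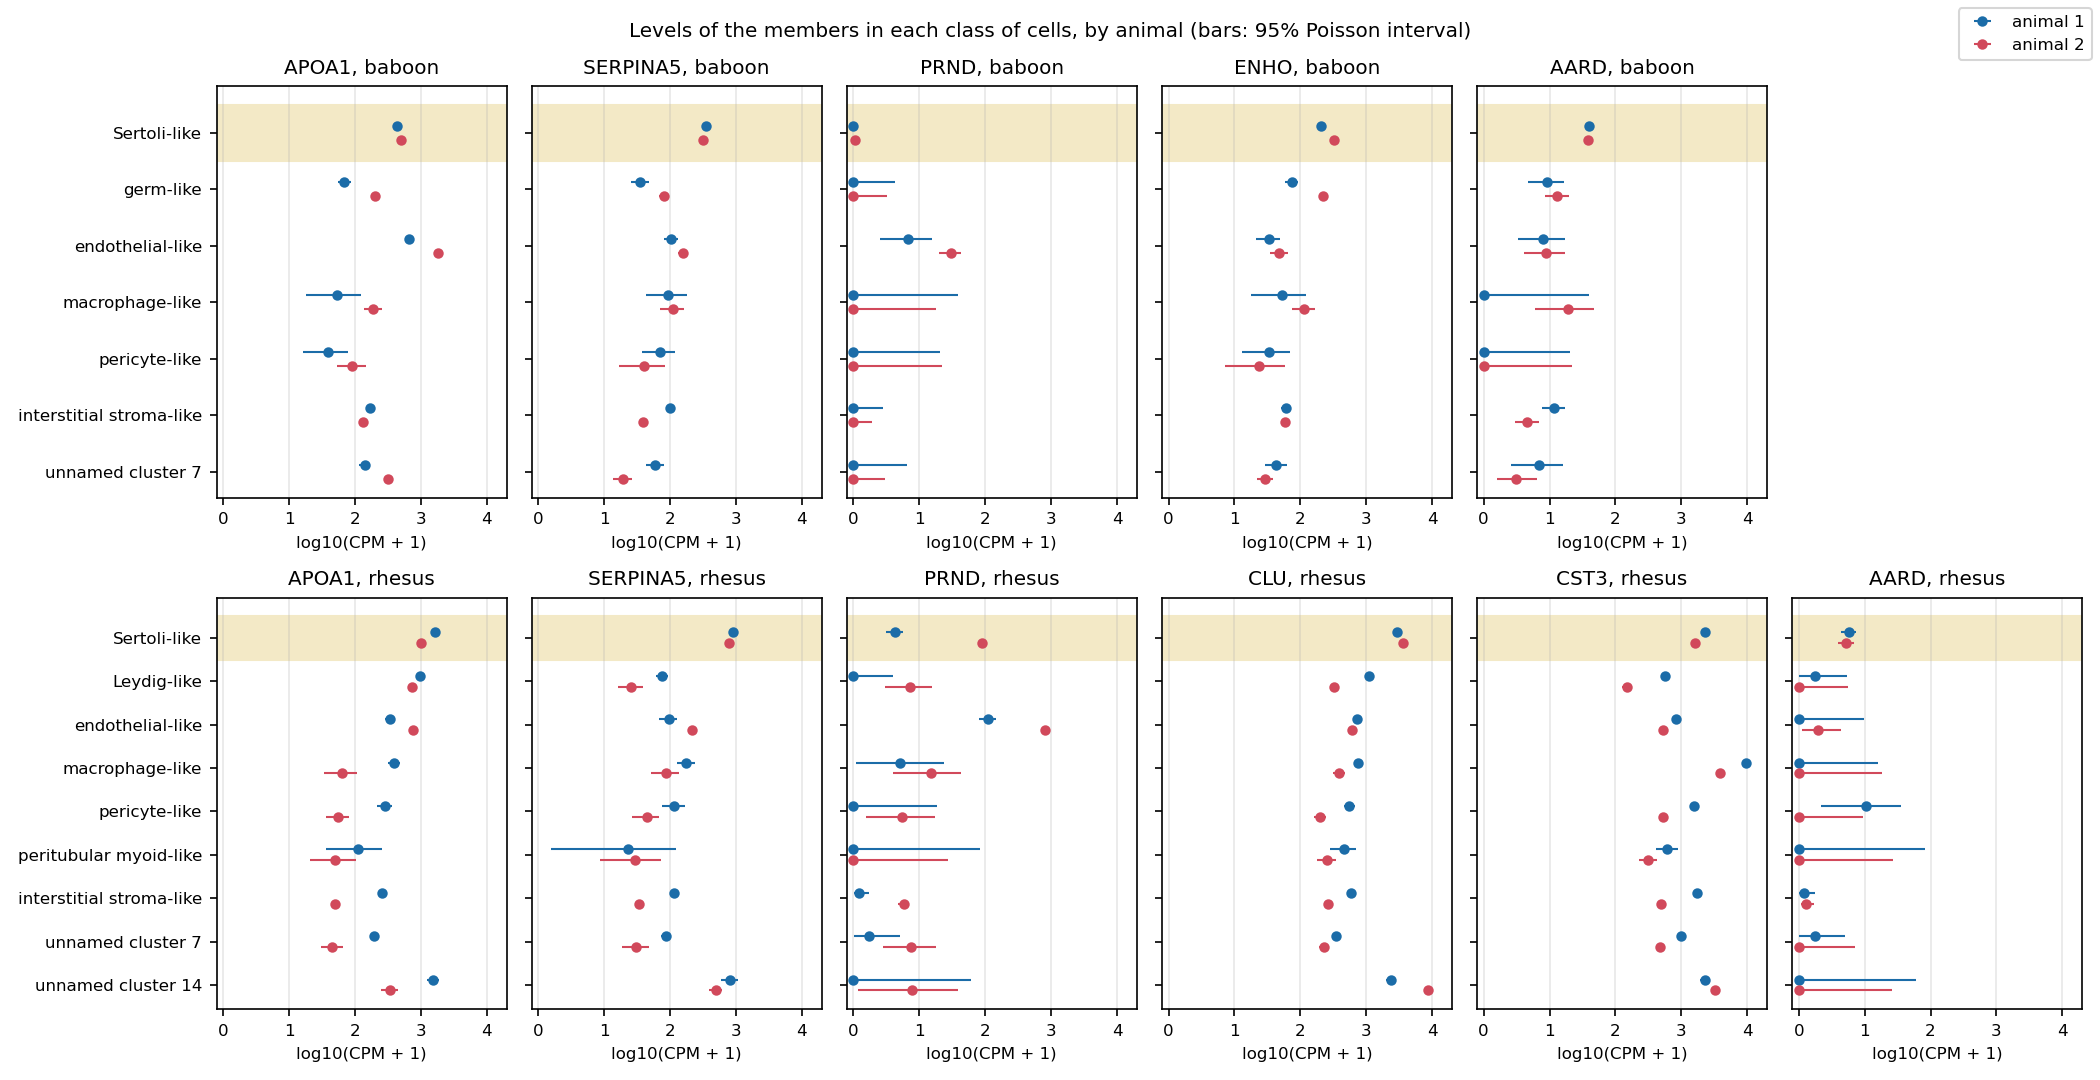
Level of each member in each class of cells as log10(CPM + 1), with 1 point per animal and 95% Poisson intervals, and Sertoli-like cells in the shaded band. SERPINA5 stood highest in Sertoli-like cells in both baboons (344 and 317 CPM), whereas PRND was highest in endothelial-like cells in all 4 animals.

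Set against all other cells of the same species, 3 of the 5 members measured in the baboon were higher in Sertoli-like cells (SERPINA5, AARD and ENHO) and 1 was lower (PRND). Over all 17268 baboon genes tested, 6.58% were higher and 17.5% were lower. Of the 6 rhesus members, 3 were higher (SERPINA5, CLU and AARD), where 3.89% of the 12448 genes tested were called higher and 5.16% lower, or 9.05% in either direction. All 5 baboon members and all 6 rhesus members passed the filter on low counts in this comparison. UMIs were summed per animal and tested with the quasi-likelihood test of edgeR with Benjamini-Hochberg adjustment over all genes tested (n = 2 animals per species). At an unadjusted p under 0.05, 5 of 5 baboon members and 4 of 6 rhesus members passed, where 37.3% and 27.6% of all genes did. With the animal as a block, APOA1 was also higher in both species, which makes 4 of 5 and 4 of 6 members higher, where 21.6% of all baboon genes and 14.4% of all rhesus genes were called higher by that fit. Rhesus Sertoli cells were instead taken as single cells with UMIs of at least 2 defining genes, against cells with none of the 4. There edgeR called 0 of 6 members and 13 genes in all (0.103%). The defining genes AMH, INHA and DHH were among those 13, and the choice of cells fixed their direction in advance. At an unadjusted p under 0.05, 4 of 6 members and 19.4% of all genes passed. In the baboon, edgeR called 4 of 5 members higher and 1 lower with this choice, where 1364 of 16016 genes were higher and 2010 lower.

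SERPINA5 was higher in Sertoli-like cells of both species. Its level there was 344 CPM in baboon 1 and 317 CPM in baboon 2 (mean 330.5 ± 18.7 SD, n = 2 animals), and 886 CPM in rhesus 1 and 783 CPM in rhesus 2 (834 ± 72.8). Both animals of each species lay above both animals of every other named class. No rhesus class was named germ-like. The germ marker list was highest in rhesus unnamed cluster 7, at 989.0 and 739.6 CPM, where SERPINA5 was at 29.5 to 85.7 CPM. The 97 cells of rhesus unnamed cluster 14 overlapped with Sertoli-like cells (798 and 490.3 CPM). Those 97 cells also held the 4 defining genes, at 5844.0 CPM in rhesus 1 and 1246.1 CPM in rhesus 2. The 33 of them in rhesus 2 with no UMI of those genes held SERPINA5 at 361.7 CPM, from 20 UMIs. In the baboon the next class was endothelial-like, with 102 and 157 CPM, followed by macrophage-like (93.1 and 109), interstitial stroma-like (99.3 and 38.1), germ-like (34.4 and 79.3) and pericyte-like cells (69.5 and 39.5), none of which were separated from the next in that order. Rhesus endothelial-like cells held 93.9 and 211 CPM and macrophage-like cells 173 and 85.5 CPM. The lowest mean was that of peritubular myoid-like cells, with 22.0 and 27.9 CPM. These levels came from only 22 and 76 cells and rest on few UMIs, and they overlapped with Leydig-like cells. The log2 fold change against all other cells was 2.51 ± 0.26 (SE) in the baboon (edgeR adjusted p = 0.0137) and 3.31 ± 0.52 in the rhesus macaque (edgeR adjusted p = 0.0278).

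The rhesus SERPINA5 gene lies on chr7:156750129-156762138 on the plus strand of Mmul_10 in the RefSeq annotation, and the baboon gene on chromosome 7 of Panubis1.0, from 11971884 to 11985213. The 250 bases before the RefSeq start of the rhesus gene (chr7:156749879-156750128) are shown because this member was higher than in all other cells in both species. Letters of 4 binding motifs were searched on both strands, and a match would stand in capitals. The letters AACAAT were taken for SOX factors such as SOX9. For the GATA family the letters were AGATAA, while those of the steroidogenic factor NR5A1 were AAGGTCA. The ETS family was searched as AGGAAG, and no matches overlapped in these windows.
SERPINA5: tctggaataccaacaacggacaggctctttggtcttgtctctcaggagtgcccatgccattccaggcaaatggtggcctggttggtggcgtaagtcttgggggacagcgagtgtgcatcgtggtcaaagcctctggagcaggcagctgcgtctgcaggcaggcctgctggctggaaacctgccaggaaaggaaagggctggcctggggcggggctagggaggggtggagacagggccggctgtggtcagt
This window held 0 matches and had a GC content of 61.6%, beside a median of 57.2% over the same window of 20774 protein-coding RefSeq genes on placed chromosomes. The shares of those windows with a match were 7.82% for the SOX motif, 8.4% for the GATA motif, 3.2% for the NR5A1 motif and 25.8% for the ETS motif.

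CLU, measured in the rhesus macaque, was higher in Sertoli-like cells than in every other named class of both animals. Its level was 2979 CPM in rhesus 1 and 3660.0 CPM in rhesus 2 (3319 ± 482 SD, n = 2 animals). The highest level in any other named class was 1085 CPM in Leydig-like cells of rhesus 1, where rhesus 2 had 325 CPM. Endothelial-like cells held 723 and 619 CPM, macrophage-like cells 754 and 389 CPM, and interstitial stroma-like cells 585 and 261 CPM. The named classes below Sertoli-like cells overlapped with their neighbours in the order, and unnamed cluster 14 (2344 and 8628 CPM) overlapped with Sertoli-like cells. The log2 fold change against all other cells was 2.70 ± 0.51 (edgeR adjusted p = 0.0384). Without rhesus 1 it was 3.32 from the lone animal, which allows no test. CLU lies on chromosome 8 of Mmul_10, from 27861624 to 27879171 on the minus strand.

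ENHO, measured in the baboon, was at 207 CPM in Sertoli-like cells of baboon 1 and 325 CPM in those of baboon 2 (266 ± 83.8 SD, n = 2 animals). Germ-like cells came next, with 73.4 and 223 CPM, and the level in germ-like cells of baboon 2 was above that in Sertoli-like cells of baboon 1, so the groups overlapped. Within each baboon the Sertoli-like level was higher, by 2.82 times and 1.46 times. All other classes lay between 22.6 and 113.7 CPM. Against all other cells the log2 fold change was 2.15 ± 0.34 (edgeR adjusted p = 0.0179). This call was lost when only cells above the UMI cutoff were used, with a log2 fold change of 1.66 and an edgeR adjusted p of 0.0511. The gene lies on chromosome 13 of Panubis1.0, from 62572743 to 62574748.

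AARD, which encodes a protein named for its alanine- and arginine-rich domain, was a low transcript that was higher in Sertoli-like cells than in all other cells of both species. It was at 39.2 CPM in baboon 1 (1222 UMIs) and 37.4 CPM in baboon 2 (1292 UMIs), whereas the other classes ranged from 0 to 18.2 CPM with no more than 22 UMIs in an animal. No AARD UMI was found in pericyte-like cells, where 3 UMIs would be 16.0 and 16.9 CPM. In rhesus Sertoli-like cells the levels were 4.73 CPM (41 UMIs) and 4.27 CPM (34 UMIs), and all other rhesus cells together held 6 UMIs in each animal. Rhesus pericyte-like cells overlapped with Sertoli-like cells, since they held 9.52 CPM in rhesus 1, from 2 UMIs, and 0 UMIs in rhesus 2. The other rhesus classes cannot be ordered at such low counts. The log2 fold change against all other cells was 2.68 ± 0.30 in the baboon (edgeR adjusted p = 0.0137) and 3.54 ± 0.64 in the rhesus macaque (edgeR adjusted p = 0.0364). The gene lies on chromosome 8 in both species, from 112294709 to 112300169 in Panubis1.0 and from 117228219 to 117238419 in Mmul_10.

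APOA1 was found in Sertoli-like cells of all 4 animals. It was also high in endothelial-like cells, least so in rhesus 1, and in Leydig-like cells of the rhesus macaque. No class was named Leydig-like in the baboon. In the baboon, Sertoli-like cells held 433 and 497 CPM (465.0 ± 45.4 SD, n = 2 animals), whereas endothelial-like cells, which line blood vessels, held 661 CPM in baboon 1 and 1831 CPM in baboon 2. The endothelial-like level was thus 1.53 and 3.68 times that of Sertoli-like cells of the same baboon, and both baboons lay above both Sertoli-like values. In the rhesus macaque, Sertoli-like cells held 1627 and 994 CPM (1311 ± 448), Leydig-like cells, the androgen-making cells of the interstitium, held 975 and 726 CPM, and endothelial-like cells held 335 and 758 CPM. Sertoli-like levels were 1.67 and 1.37 times the Leydig-like levels of the same animal and 4.86 and 1.31 times the endothelial-like levels. The endothelial-like class of rhesus 1 also held lymphoid markers, with the lymphoid list (10 of 10 genes found) at 2779.4 CPM and the endothelial list at 1912.3 CPM, where rhesus 2 had 6.51 and 4593.8 CPM. Of its cells, 67 of 141 in rhesus 1 and 11 of 610 in rhesus 2 had a lymphoid UMI. Without them, a choice made after seeing the data, the Sertoli-like level of APOA1 was 4.08 and 1.3 times the endothelial-like level. Neighbouring classes overlapped throughout the rhesus order when the unnamed clusters were included.

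Against all other cells, the log2 fold change of APOA1 was 0.92 ± 0.33 in the baboon (edgeR adjusted p = 0.114) and 2.45 ± 0.63 in the rhesus macaque (edgeR adjusted p = 0.0708), so neither passed. With the animal as a block, the values were 0.97 ± 0.18 (edgeR adjusted p = 0.0106) and 2.44 ± 0.30 (edgeR adjusted p = 0.00332), and both passed. In the rhesus fit without the block, the defining genes INHA and AMH had edgeR adjusted p of 0.051 and 0.05. With the block they had edgeR adjusted p of 0.00349 and 0.00698. The defining genes SOX9 and DHH had edgeR adjusted p of 0.0159 and 0.0152 without the block. The Sertoli-like clusters were named by these same genes, so their p-values are no independent test and only describe the fits. The joint fit over classes gave −1.43 ± 0.56 for Sertoli-like minus endothelial-like cells in the baboon (edgeR adjusted p = 0.107), and with the block −1.29 ± 0.35 (edgeR adjusted p = 0.00857). In the rhesus macaque the same difference was 1.19 ± 0.92 (edgeR adjusted p = 0.485), and Sertoli-like minus Leydig-like was 0.10 ± 0.91 (edgeR adjusted p = 0.988), and neither passed with the block (edgeR adjusted p = 0.425 and 0.993).

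The rhesus APOA1 gene lies on chr14:109895810-109897661 on the minus strand of Mmul_10, and the baboon gene on chromosome 12 of Panubis1.0, from 17727239 to 17729419.

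CST3 was high in rhesus Sertoli-like cells but higher still in macrophage-like cells. Sertoli-like cells held 2308 CPM in rhesus 1 and 1642 CPM in rhesus 2 (1975 ± 471 SD, n = 2 animals). Macrophage-like cells, the resident phagocytes of the interstitium, held 9482 and 3913 CPM, which was 4.11 and 2.38 times the Sertoli-like level of the same animal, and the groups did not overlap. Interstitial stroma-like cells held 1756 and 488 CPM and pericyte-like cells 1566 and 533 CPM, and the stroma-like level of rhesus 1 was above the Sertoli-like level of rhesus 2. Against all other cells the log2 fold change was 0.84 ± 0.71 (edgeR adjusted p = 0.513), and without rhesus 1 the lone animal gave 1.61. Sertoli-like minus macrophage-like was −2.17 ± 0.81 (edgeR adjusted p = 0.123), and with the animal as a block −2.08 ± 0.35 (edgeR adjusted p = 0.000695). CST3 lies on chr10:42869247-42873160 on the plus strand of Mmul_10.

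PRND went against the name of the list, since endothelial-like cells and not Sertoli-like cells held the highest level in both species. In the baboon, endothelial-like cells held 5.61 CPM (4 UMIs) and 28.9 CPM (26 UMIs). Baboon Sertoli-like cells held 0 UMIs in baboon 1, where 3 UMIs would be 0.0963 CPM, and 2 UMIs in baboon 2 (0.0578 CPM). No other baboon class held a PRND UMI. Rhesus endothelial-like cells held 108 CPM (45 UMIs) in rhesus 1 and 810.1 CPM (1742 UMIs) in rhesus 2, which was 33.6 and 9.15 times the Sertoli-like level of the same animal. Without the endothelial-like cells that had a lymphoid UMI, it was at 172.6 and 794.4 CPM, or 53.4 and 8.98 times the Sertoli-like level. The 56 cells of that class with lymphoid and no endothelial UMIs held 0 UMIs of PRND.

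PRND was also found in rhesus Sertoli-like cells, at 3.23 CPM in rhesus 1 (28 UMIs) and 88.5 CPM in rhesus 2 (704 UMIs, 45.9 ± 60.3 SD over n = 2 animals). The level of rhesus 2 came from both of its libraries, with 80.4 CPM in 2A and 97.1 CPM in 2B. All other classes in rhesus 2 held 14.2 CPM or less outside endothelial-like cells. The endothelial marker list was at 28.8 CPM in Sertoli-like cells of rhesus 2 and at 4594 CPM in its endothelial-like cells. PRND would be at 5.08 CPM in the former if it followed that list in the same ratio. The log2 fold change against all other cells was −5.57 ± 1.21 in the baboon (edgeR adjusted p = 0.0338, resting on 2 and 30 UMIs) and −0.32 ± 1.63 in the rhesus macaque (edgeR adjusted p = 0.929). Without library 1A, PRND did not pass the filter on low counts in the baboon and had no test. Sertoli-like minus endothelial-like was −3.65 ± 1.36 in the rhesus macaque (edgeR adjusted p = 0.107), and with the block −4.13 ± 0.39 (edgeR adjusted p = 2.87e-06).

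The rhesus PRND gene lies on chr10:61756958-61760708 on the minus strand of Mmul_10, and the baboon gene on chromosome 16 of Panubis1.0, from 53762123 to 53766056. Its 250 bases before the start (chr10:61760709-61760958, written along the gene) are shown because this member was highest in endothelial-like cells, and the capitals mark the ETS motif.
PRND: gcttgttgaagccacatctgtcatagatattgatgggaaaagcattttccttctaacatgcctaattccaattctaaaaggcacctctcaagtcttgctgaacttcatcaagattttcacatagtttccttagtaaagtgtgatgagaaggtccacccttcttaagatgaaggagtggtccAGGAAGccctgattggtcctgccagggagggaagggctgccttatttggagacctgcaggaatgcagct
The match lay 69 to 64 bases before the RefSeq start, 25.8% of the windows of protein-coding genes held this motif, and the GC content was 44.8%.

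Sertoli-like cells were next set against each other named class in a joint edgeR fit, with adjustment over the genes tested in each comparison. Of the members, 4 passed the filter on low counts in the baboon (PRND did not) and 5 in the rhesus macaque (AARD did not). In the baboon, 12 of 20 comparisons of a member with a class were called, each of them higher in Sertoli-like cells. With the animal as a block, 19 of 20 were called in either direction, and among these APOA1 was lower than in endothelial-like cells. The block called 31.5% of all genes in either direction against endothelial-like cells, 52% against germ-like, 34.6% against interstitial stroma-like, 13.4% against macrophage-like and 17.4% against pericyte-like cells. SERPINA5, AARD and ENHO were higher than in interstitial stroma-like cells (6.7% of all genes were called higher) and SERPINA5, AARD and APOA1 than in germ-like cells (11%). AARD and ENHO were higher than in endothelial-like cells (6.31%), and all 4 than in pericyte-like cells (3.48% called higher and 7.83% lower), where AARD had 0 UMIs and no fold is given. None of the 4 was called by edgeR against macrophage-like cells (2.05%), where 3 passed at an unadjusted p under 0.05 (APOA1, SERPINA5 and ENHO), beside 22.5% of all genes, and the log2 fold changes were 1.56 to 1.85. These 117 cells also held lymphoid markers, with 2772.3 and 2141.3 CPM on the lymphoid list (8 of 10 found), at most 18.9 CPM in any other baboon class, and 6475.6 and 6792.1 CPM on the macrophage list. A lymphoid UMI was found in 27 of 39 such cells of baboon 1 and 41 of 78 of baboon 2, and without them APOA1 was called higher (2.92 ± 0.69, edgeR adjusted p = 0.0277), from 5 and 3 UMIs in macrophage-like cells. Without library 1A, the call of APOA1 against germ-like cells was lost (edgeR adjusted p = 0.0604).

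For the rhesus members, 9 of 30 such comparisons were called, each higher in Sertoli-like cells. With the animal as a block, 25 of 30 were called in either direction. Among these, CST3 was lower than in macrophage-like cells and PRND lower than in endothelial-like cells. The block called 25.8% of all genes in either direction against endothelial-like, 26.4% against interstitial stroma-like, 15.6% against Leydig-like, 16% against macrophage-like, 15.5% against pericyte-like and 9.68% against peritubular myoid-like cells. SERPINA5 was higher than in Leydig-like cells (2.27% of all genes were called higher). SERPINA5 and CLU were both higher than in endothelial-like (5.07%, with 8.88% lower), interstitial stroma-like (5.39%), pericyte-like (2.55%, with 4.81% lower) and peritubular myoid-like cells (1.86%, with 3.63% lower). None of the 5 was called by edgeR against macrophage-like cells (2.32% of all genes higher and 6.8% lower), where 4 passed at an unadjusted p under 0.05, beside 22.5% of all genes, with SERPINA5, CLU and APOA1 at higher and CST3 at lower levels in Sertoli-like cells. The log2 fold changes of SERPINA5 ran from 2.25 against macrophage-like cells to 5.04 against peritubular myoid-like cells, and those of CLU from 1.62 against Leydig-like to 3.34 against peritubular myoid-like cells. The value of 5.04 rested on few SERPINA5 UMIs in the 22 and 76 peritubular myoid-like cells. The calls against endothelial-like cells were lost for SERPINA5 without library 2A (edgeR adjusted p = 0.0558) and for CLU without library 2B (edgeR adjusted p = 0.0505). Without endothelial-like cells that had a lymphoid UMI, the call of CLU was lost as well (edgeR adjusted p = 0.0665) and that of SERPINA5 was not (edgeR adjusted p = 0.0405).

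**Figure D2:**
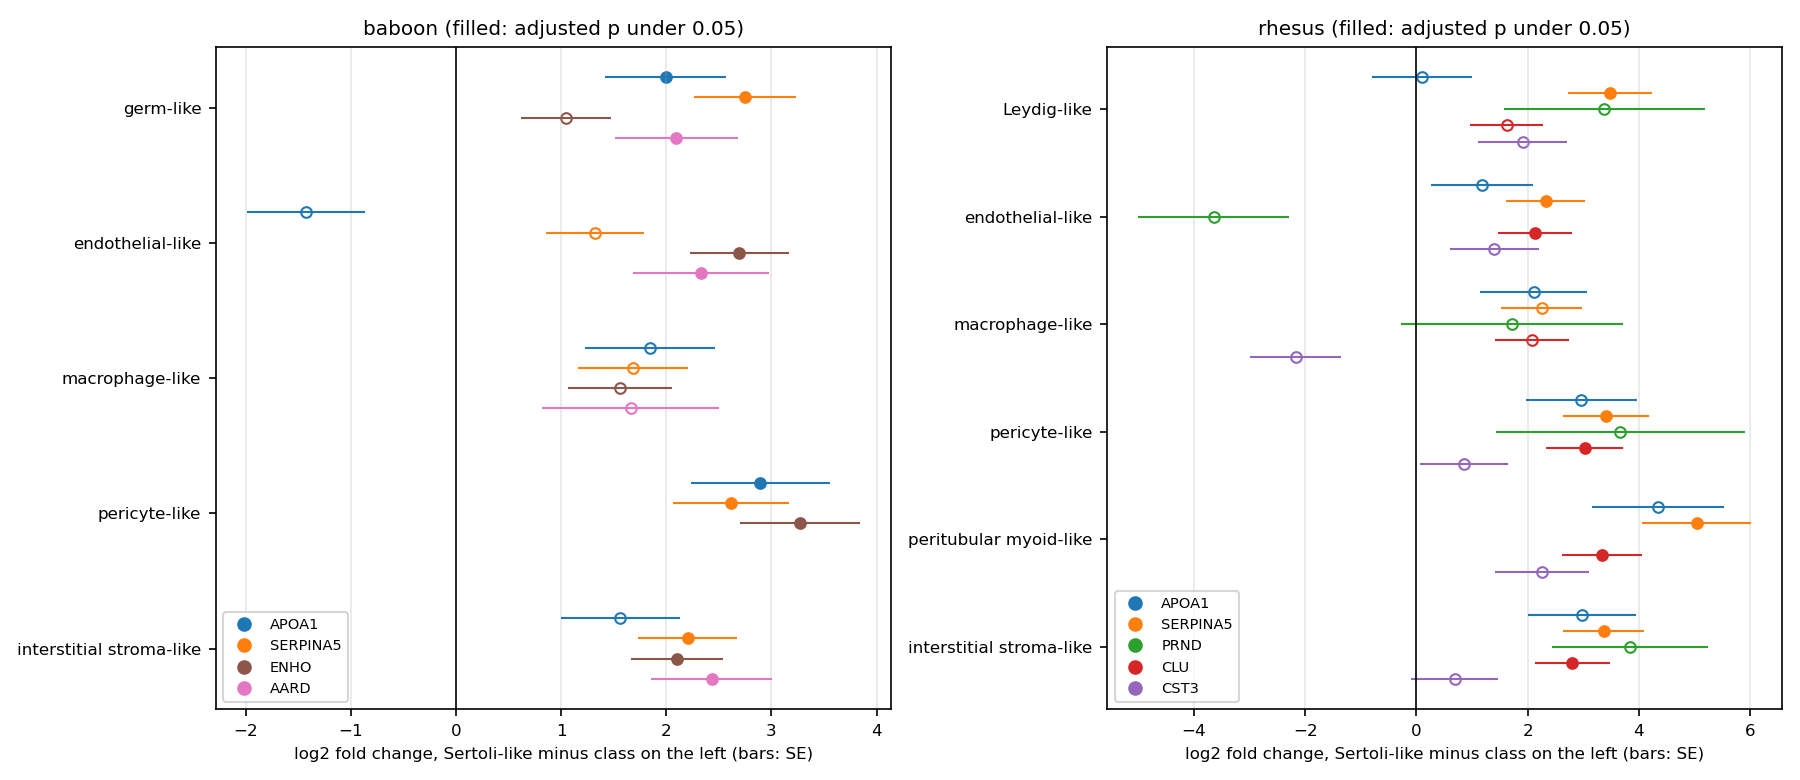
Log2 fold change of each member, Sertoli-like minus the class named on the left, with its SE (n = 2 animals per species) and filled points for an edgeR adjusted p under 0.05. Points with an SE of 2.5 or more are not drawn, and the points left of 0 are APOA1 and PRND against endothelial-like cells (baboon APOA1 at −1.43, rhesus PRND at −3.65) and CST3 against macrophage-like cells (−2.17).

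RNA from broken cells is captured with every droplet, so low levels outside Sertoli-like cells were set beside this free RNA. It was read from near-empty droplets of the same library, where AMH was at 4148 to 9873 CPM in the baboon and 1703 to 2179 CPM in the rhesus macaque. For each other class, the level of a member was computed that would be met if all AMH of the class were free RNA and the member came with it in the same ratio. For SERPINA5 in interstitial stroma-like cells this gave 98.2 and 27.5 CPM in the baboon, where 99.3 and 38.1 CPM were measured, and 164 and 34.8 CPM in the rhesus macaque, where 113.5 and 33.2 CPM were measured. For CLU it gave 622 and 233 CPM, where 585 and 261 CPM were measured in the same class. These measured levels were close to the computed ones and are not read as expression here, and their source was not tested.

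Most of the levels named next stood above those computed from free RNA, and their source was not tested either. APOA1 in endothelial-like cells was measured at 661 and 1831 CPM in the baboon, against 36.1 and 96.2 CPM computed, and at 335 and 758 CPM in the rhesus macaque, against 242 and 65.6 CPM. In rhesus 1 the measured and computed levels of APOA1 were thus close. In rhesus Leydig-like cells APOA1 was at 975 and 726 CPM against 233 and 29.4 CPM. PRND in rhesus endothelial-like cells was at 108 and 810.1 CPM against 0.878 and 5.16 CPM, and near-empty droplets of the baboon held no PRND UMI. CST3 in macrophage-like cells was at 9482 and 3913 CPM against 1246 and 382 CPM, and in interstitial stroma-like cells at 1756 and 488 CPM against 750 and 144 CPM. ENHO in baboon germ-like cells was at 73.4 and 223 CPM against 24.1 and 92.5 CPM. SERPINA5 in endothelial-like cells was at 102 and 157 CPM against 27.6 and 41.5 CPM in the baboon, and at 211 CPM against 36.1 CPM in rhesus 2. In rhesus 1 it was not above free RNA, at 93.9 CPM against 113.1 CPM.

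The same members were found in endothelial-like cells that held no UMI of AMH, INHA, SOX9 or DHH. In the baboon, 94 such cells of baboon 1 held APOA1 at 751 CPM and 73 of baboon 2 at 1966.0 CPM, and 350 such cells of rhesus 2 held PRND at 903 CPM (890 UMIs). In the 47 and 55 such macrophage-like cells of the rhesus macaques, CST3 was at 11061 and 4451 CPM. ENHO in baboon germ-like cells without those UMIs was at 68.4 and 215.5 CPM, from 7 and 50 UMIs, and SERPINA5 had 0 UMIs there in both animals. Those cells were selected by genes other than the members.

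**Figure D3:**
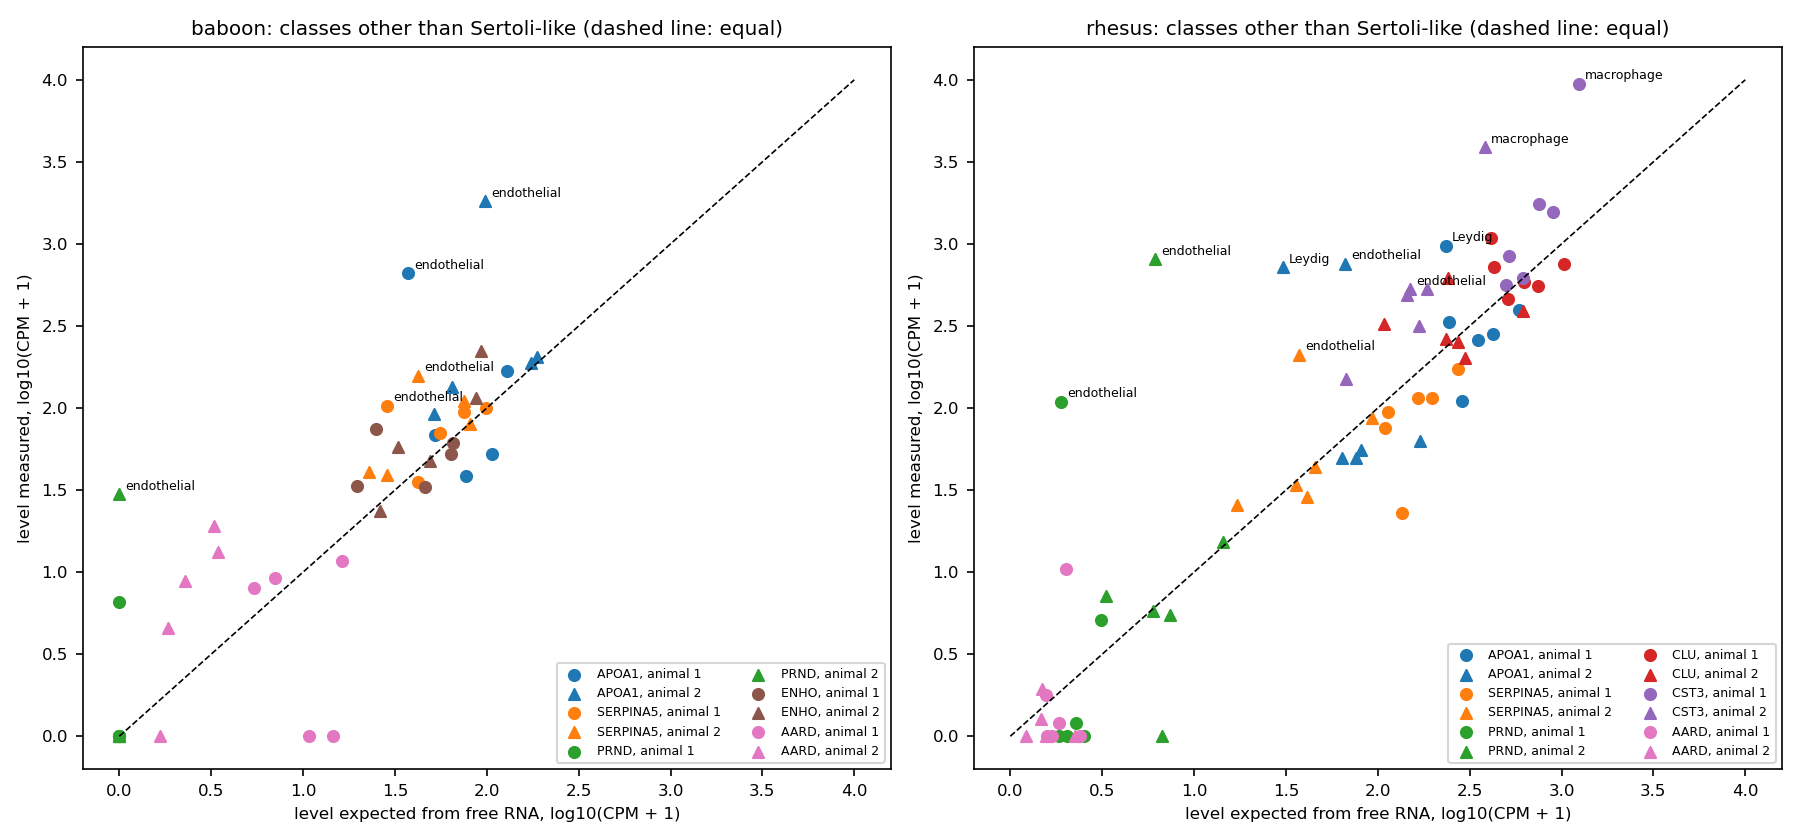
Measured level against the level computed from free RNA for each member in each named class other than Sertoli-like, both as log10(CPM + 1), with 1 point per animal and a dashed line where both are equal. Most points lie near the line, and the class is written beside points that are over 25 CPM and more than 3.5 times the computed level, such as CST3 in macrophage-like and PRND in endothelial-like cells.

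In Sertoli-like cells, free RNA was scaled by the stromal genes DCN and COL1A1. The computed level was 25.6 and 132.7 CPM for APOA1 in the baboon, against 433 and 497 CPM measured, and 503 and 634 CPM for CLU in the rhesus macaque, against 2979 and 3660.0 CPM. For PRND in rhesus 2 it was 13.5 CPM against 88.5 CPM. Measured levels were 3.13 to 21.3 times the computed ones for all members in Sertoli-like cells, leaving out PRND in the baboon, where the computed level was 0.

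The members were then read against the number of defining genes in each cell, after 1000 UMIs had been drawn from every cell that held that many. SERPINA5 in all cells of baboon 1 was at 53.1 CPM with 0 defining genes (95% Poisson interval 40.7 to 68.0), 265 CPM with 1 and 357 CPM with 2, and in baboon 2 at 18.0, 236.5 and 358 CPM. In rhesus 1 it was at 59.2, 238.5 and 696 CPM, and in rhesus 2 at 39.2, 157 and 689 CPM, for 0, 1 and 2 defining genes. Intervals did not overlap between those steps in any animal. They cover counting error only, as do all intervals here. CLU went from 433 to 2661 CPM in rhesus 1 and from 299 to 3291 CPM in rhesus 2 between 0 and 2 defining genes. ENHO went from 50.5 to 206 CPM in baboon 1 and from 36.0 to 297 CPM in baboon 2. Most cells with 0 defining genes, and in the rhesus macaque most cells with 1, were of other classes, so these steps largely repeat the difference between classes. Among Sertoli-like cells, SERPINA5 went from 288.6 to 358.2 CPM in baboon 1 and from 317.1 to 373.6 CPM in baboon 2 between 1 and 2 defining genes. The same step was from 706.4 to 850.5 CPM in rhesus 1 and from 585.3 to 768.1 CPM in rhesus 2. Within Sertoli-like cells alone, ENHO was at 198.8 CPM with 0 and 209.4 CPM with 2 defining genes in baboon 1. In baboon 2 it was at 55.9 and 309.9 CPM. Over all cells with 3 defining genes, SERPINA5 was at 335.6 and 313.5 CPM in the baboons and 882.6 and 820.3 CPM in the rhesus macaques.

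The steps were smaller for CST3, which was already at 1638 CPM in rhesus 1 and 515 CPM in rhesus 2 with 0 defining genes, and at 2438 and 1524 CPM with 2. APOA1 in cells with 0 defining genes was at 177 and 225 CPM in the baboon and at 205.5 and 95.2 CPM in the rhesus macaque. PRND in rhesus 2 was at 57.3 CPM with 0 defining genes (51.8 to 63.2), 55.3 with 1, 64.8 with 2 and 104 with 3 (86.9 to 122.7), a course that was not that of the other members. Within Sertoli-like cells of rhesus 2 alone, PRND was at 91.2 CPM with 1, 69.6 with 2, 105.1 with 3 and 113.0 with 4 defining genes, with overlapping intervals except between 2 and 3.

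**Figure D4:**
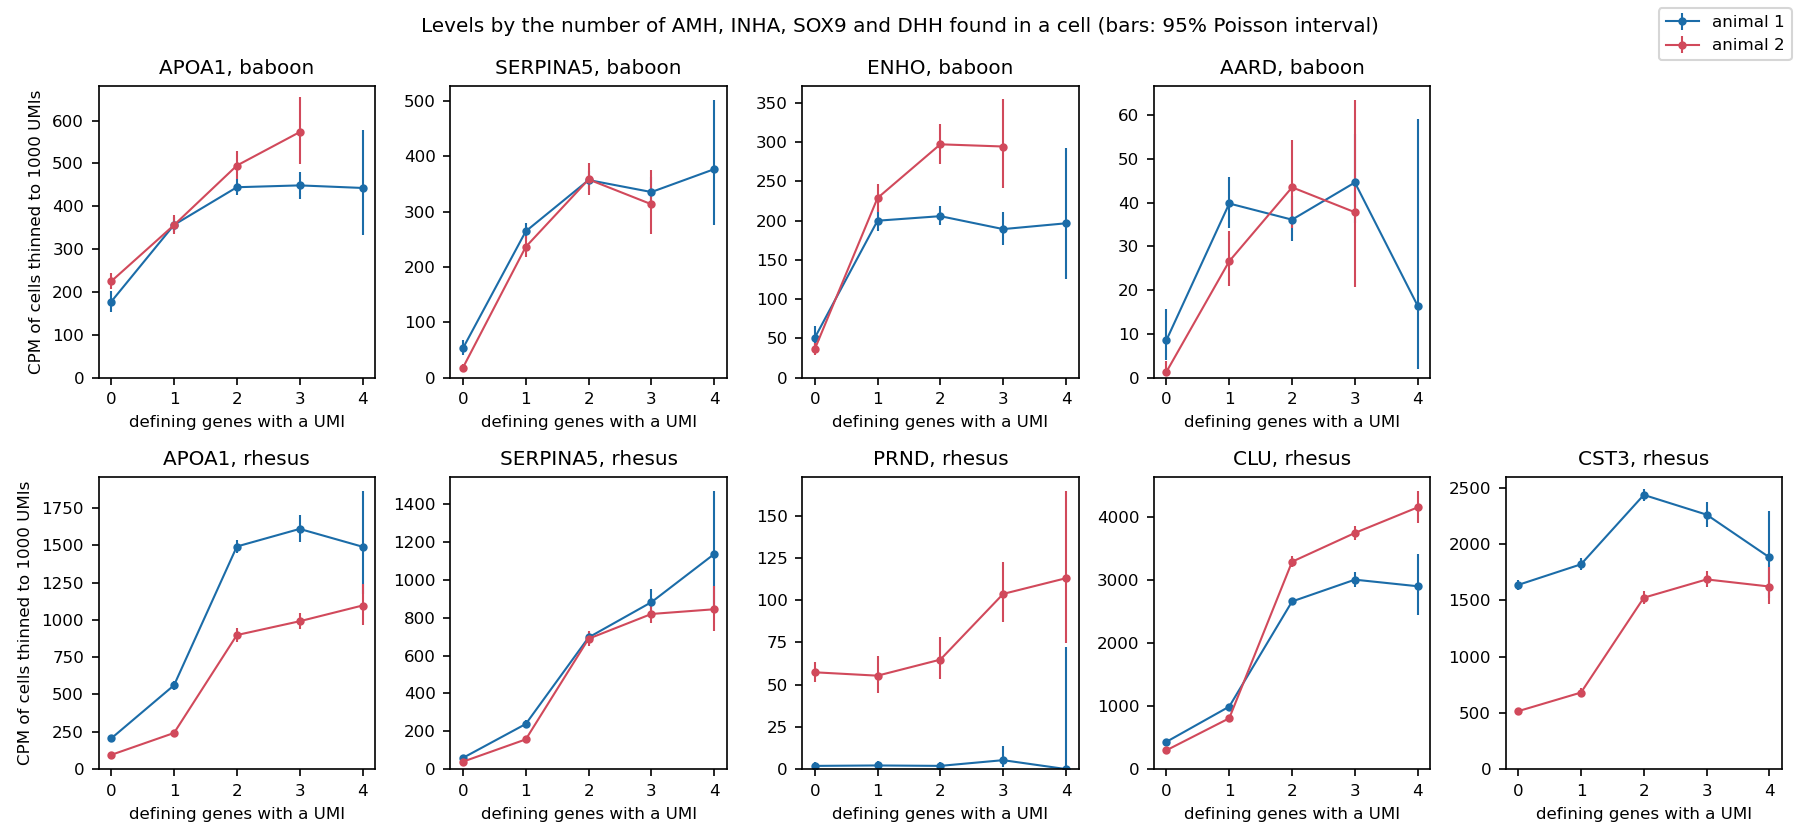
Level of members in CPM by the number of AMH, INHA, SOX9 and DHH with a UMI in a cell, after 1000 UMIs were drawn per cell, with 95% Poisson intervals and 1 line per animal. Groups under 50 cells, PRND in the baboon and AARD in the rhesus macaque are not drawn, and SERPINA5 climbs from 53.1 to 357 CPM in baboon 1 between 0 and 2 defining genes.

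Counted in cells at 1000 UMIs, APOA1 had a UMI in 31.6% of Sertoli-like cells of baboon 1 (3675 of 11639) and 34.1% of those of baboon 2 (1390 of 4071), and SERPINA5 in 25.3% and 26.0%. ENHO had one in 18.5% and 24.8% and AARD in 3.91% and 3.86% of the same cells. In baboon interstitial stroma-like cells, whose SERPINA5 level was near that of free RNA, the shares were 11.3% and 10.5% for APOA1, 7.05% and 2.99% for SERPINA5, 4.0% and 4.97% for ENHO and 0.842% and 0.145% for AARD. PRND was found in 0 of 11639 and 1 of 4071 Sertoli-like cells. The median depth was 1972 and 4183 UMIs in Sertoli-like cells and 1245 and 1688.5 UMIs in stroma-like cells. The draw left out 1307 and 432 Sertoli-like cells with fewer UMIs, and without it the shares for APOA1 were 50.9% and 69.3%.

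At the same depth, CLU had a UMI in 91.4% of Sertoli-like cells of rhesus 1 (3291 of 3602) and 93.3% of those of rhesus 2 (3170 of 3398), CST3 in 88.3% and 77.1%, APOA1 in 75.8% and 57.1%, and SERPINA5 in 54.5% and 51.1%. PRND had one in 0.222% and 7.65% of Sertoli-like cells and in 8.73% and 40.9% of endothelial-like cells. In interstitial stroma-like cells the shares were 39.5% and 21.3% for CLU, 9.44% and 3.25% for SERPINA5, and 0 of 4843 cells and 0.364% for PRND. CST3 had a UMI in 95.2% and 89.5% of macrophage-like cells, and the draw left out 490 and 715 Sertoli-like cells. Without the draw the shares in Sertoli-like cells were 94.6% and 96.3% for CLU and 0.635% and 13.2% for PRND, at median depths of 1588 and 1676 UMIs, with 1541 and 1358 UMIs in stroma-like cells.

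All members but baboon PRND were found in every Sertoli-like cluster of both animals. Across the 6 baboon clusters, the mean of both baboons ran from 333 to 499 CPM for APOA1, from 279 to 376 CPM for SERPINA5, from 177 to 327 CPM for ENHO and from 23.3 to 42.1 CPM for AARD. The lowest mean of each of those members was in cluster 2, where baboon 2 held APOA1 at 233 CPM and AMH at 3732 CPM, against 433 and 7849 CPM in baboon 1. Between the 2 rhesus clusters, CLU was at 3592 and 3103 CPM, CST3 at 2212 and 1752 CPM, APOA1 at 1414 and 1208 CPM and SERPINA5 at 810.2 and 863.5 CPM, with differences no larger than those between the animals for APOA1 and CLU. Libraries of 1 animal differed by 1.05 times or less for each member in Sertoli-like cells, except PRND (1.21 times) and AARD (1.35 times) in the rhesus macaque.

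Other genes with a course like that of each member over the named classes were read from Pearson correlations of log2(CPM + 10), over 12 sums of 6 classes in the baboon and 14 sums of 7 classes in the rhesus macaque. The sums share animals and libraries, so the values are descriptions only. The genes nearest to PRND were SELE (0.987), LOC116270501 (0.98) and CCL21 (0.971) in the baboon and FZD6 (0.948), F11R (0.946) and NPR1 (0.939) in the rhesus macaque. Nearest to SERPINA5 were DCLK1 (0.939), the gap junction gene GJA1 (0.921) and LOC101004259 (0.916) in the baboon, and HERC5 (0.937), MPPED2 (0.935) and SPAAR (0.92) in the rhesus macaque. APOA1 was nearest to NOSTRIN (0.968), TTC9 (0.964) and CLCN3 (0.948) in the baboon and to PRDX5 (0.874) and NDUFB5 (0.856), among others, in the rhesus macaque. AARD was nearest to CST9L (0.973), LCN10 (0.959) and LOC116269695 (0.959) in the baboon, and to POMC (0.941), CHDH (0.894) and ENSMMUG00000055334 (0.873) in the rhesus macaque. ENHO was nearest to SLC25A21 (0.963), GATA5 (0.958) and AKAP7 (0.951), CLU to DCTPP1 (0.92), LYNX1-SLURP2 (0.915) and ETNK2 (0.906), and CST3 to CYP27A1 (0.911), UBE2D4 (0.899) and NAAA (0.886). Rhesus AARD was at 9.52 CPM or less in every class, under the 10 CPM added. Baboon PRND had 4 and 26 UMIs outside Sertoli-like cells. The correlations of both thus rest on few UMIs.

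Lists of related genes, written with earlier results of these data known, were counted beside the members in the comparison with all other cells. Of all genes tested there, 6.58% were higher and 17.5% lower in the baboon, and 3.89% and 5.16% in the rhesus macaque. Of 16 surface proteins of Sertoli cells tested in the baboon, 9 were higher, with a median log2 fold change of 1.73 beside −0.003 over all genes. Of 15 in the rhesus macaque, 6 were higher and 1 was lower, with a median of 1.86 beside 0 over all genes. FSHR, the receptor of follicle-stimulating hormone, was higher by 3.02 ± 0.61 in the baboon and 4.02 ± 0.39 in the rhesus macaque on the log2 scale (edgeR adjusted p = 0.0282 and 0.0152). AMHR2, a receptor of AMH, was higher by 2.76 ± 0.24 and 2.63 ± 0.41 (edgeR adjusted p = 0.0137 and 0.0272). Among other secreted products, 7 of 20 were higher and 5 lower in the baboon (median 0.99), and 5 of 16 were higher in the rhesus macaque (median 0.74), and transferrin (TF), which carries iron, was higher in both (2.88 ± 0.38 and 3.69 ± 0.68, edgeR adjusted p = 0.0151 and 0.037). In the baboon, IGFBP3 and INHBA of the same list were lower, by −4.81 ± 1.03 and −3.89 ± 0.57 (edgeR adjusted p = 0.0329 and 0.0164). INHBB, which encodes the beta B subunit of inhibin, and WFDC2 were higher in the rhesus macaque, by 4.07 and 3.26 (edgeR adjusted p = 0.0359 and 0.0259).

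The families of the members themselves are given next, beside the 6.58% of baboon genes called higher and 17.5% lower, and the 3.89% and 5.16% of rhesus genes. Of 20 apolipoproteins and lipoprotein handling genes tested in the baboon, 1 was higher, SCARB1 (2.03 ± 0.33, edgeR adjusted p = 0.0191), which encodes the receptor of high-density lipoprotein, and 4 were lower (median −0.12). Of 17 in the rhesus macaque, 2 were lower and 15 did not pass (median −0.31). APOD was lower in both species, by −5.82 ± 0.82 and −3.99 ± 0.36 (edgeR adjusted p = 0.0157 and 0.0152). Of 17 cystatins and cathepsins in the baboon, 3 were higher, among them CST9L (2.74 ± 0.31) and CTSV (2.39 ± 0.23), each with an edgeR adjusted p of 0.0137, and 6 were lower (median −0.27). Of 16 in the rhesus macaque, 2 were lower and 14 did not pass (median 0.43), and the 2 were CTSH (−3.22 ± 0.31, edgeR adjusted p = 0.0152) and CTSS (−3.30 ± 0.59, edgeR adjusted p = 0.0354). Of the prion family and membrane-anchored proteins, 1 of 13 was higher (GPC1, 2.47 ± 0.31, edgeR adjusted p = 0.0148, named after its value was seen) and 6 were lower in the baboon (median −0.75), among them CD24, GPC3 and GFRA1 (−6.25, −5.15 and −4.97), and 1 of 9 was higher (GPC1, 3.17 ± 0.46, edgeR adjusted p = 0.0242) and 1 lower (GFRA1) in the rhesus macaque (median 0.36). Of 18 serpins and plasminogen activation genes in the baboon, 2 were higher, PLAUR (2.40 ± 0.25, edgeR adjusted p = 0.0137) and SERPINF1 (1.46 ± 0.22, edgeR adjusted p = 0.0164), and 3 were lower (median −1.21), among them the collagen chaperone SERPINH1 (−2.40 ± 0.25, edgeR adjusted p = 0.0137). Of 16 in the rhesus macaque, 3 were higher (PLAT, SERPINB9 and SERPINB6, by 2.64, 2.06 and 1.87) and 13 did not pass (median −0.03).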

How the data were processed

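Per the labels and the study's methods, the authors made the deposited UMI counts with Cell Ranger 3.1.0 (rhesus reads on Mmul_10), and deposited all barcodes, not only those of cells. From these counts, cells were called by a UMI cutoff and by their profile (at least 500 UMIs and 200 genes, adjusted p under 0.01), and clustered in each species with Seurat 5.3.0 and sctransform 0.4.2 at resolution 0.5, with the members left out. Doublets (4.49% to 8.97% of cells marked) were kept. UMIs were summed per class and animal and tested two-sided with edgeR 4.0.16 (TMM, filterByExpr, glmQLFit and glmQLFTest). Differences between the 2 animals correlated between Sertoli-like and other sums across genes (0.642 over 17268 baboon genes, 0.604 over 12448 rhesus genes), and the sums of 1 animal come from the same testes, so the animal was tried as a block. Poisson intervals of levels are at 95%, and 3 UMIs were taken as the floor of a class with none. The fits were tested on simulated data. Gene starts came from RefSeq on Mmul_10. The members, the related lists and the tests were chosen with earlier results of these data known. Named beside the members were the 3 genes most like each one and genes from among the 3 largest called changes of each list. Items withheld from the text, 1 of these genes among them, are not reported here.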

Additional observations from a re-analysis of the deposited data

Results flagged for a closer look

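APOA1 was lower in Sertoli-like than in endothelial-like cells of both baboons and higher in both rhesus macaques. The log2 ratio of Sertoli-like to endothelial-like levels, with 10 CPM added to each, was −0.6 and −1.86 in baboon 1 and baboon 2 and 2.25 and 0.39 in rhesus 1 and rhesus 2. The means of the species thus differed by 2.55 on the log2 scale, and this difference was not tested. The endothelial-like class of rhesus 1 held 2779.4 CPM on the lymphoid list and 1912.3 CPM on the endothelial list, against 6.51 and 4593.8 CPM in rhesus 2. Without the endothelial-like cells that had a lymphoid UMI, a choice made after seeing the data, the log2 ratios were −0.64 and −1.89 in the baboons and 2.0 and 0.37 in the rhesus macaques. The species differ in the ages of their animals, reference, annotation and, for baboon 2, chemistry, which cannot be told apart from the species here.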

How the results depend on the processing

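With the animal as a block (pairing), 8396 baboon and 3757 rhesus genes were called against all other cells, where 4159 and 1126 were called without it, and 19 and 25 comparisons of members with single classes, where 12 and 9 were called. Among the members against all other cells, the block added APOA1 in both species and changed no other call. With no filter on low counts, 6247 and 2178 genes were called, with libraries as samples 6668 and 4191, and with DESeq2 2242 in the rhesus macaque. With rhesus cells taken by 2 defining genes, edgeR called 13 genes, AMH, INHA and DHH among them, and 0 of 6 members. In that setting 4 members passed at an unadjusted p under 0.05, and PRND turned from −0.32 to 0.18 (edgeR adjusted p = 0.972). APOA1 in the baboon also passed with no filter, with libraries as samples and with cells taken by 2 defining genes, and APOA1 in the rhesus macaque with no filter, DESeq2, libraries as samples and without marked doublets. Libraries as samples counts 2 libraries of 1 animal as if they were 2 animals, so its p-values do not measure the spread between animals. That setting called 6668 of 15547 baboon genes and 4191 of 11932 rhesus genes tested. Without endothelial-like and macrophage-like cells that had a lymphoid UMI, a choice made after seeing the data, 13 baboon and 9 rhesus comparisons of members with single classes were called. APOA1 was gained against baboon macrophage-like and rhesus peritubular myoid-like cells, and CLU was lost against rhesus endothelial-like cells. The cause of these changes was not tested. Without 1 library in turn, 3 to 4 baboon members and 3 rhesus members were called, with 3646 to 3919 and 1142 to 1204 genes. Leaving out baboon 2 or rhesus 1 left 1 animal and no test. Classes of few cells, such as the 98 peritubular myoid-like cells, limit what could be seen of PRND and AARD.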

Other observations

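In the rhesus macaque, unnamed cluster 14 (97 cells, led by LCN2, KRT19, ITLN1 and PTGDS) held CLU at 2344 CPM in rhesus 1 and 8628 CPM in rhesus 2, CST3 at 2295 and 3200.4 CPM, and SERPINA5 at 798 and 490.3 CPM. The 4 defining genes summed to 5844.0 and 1246.1 CPM in that cluster, where Sertoli-like cells held 8719.9 and 9970.2 CPM. Its 33 cells of rhesus 2 with no UMI of those genes held CLU at 10960.8 CPM and CST3 at 4558.0 CPM. The rete epithelium list was at 260.5 and 885.2 CPM in the cluster, beside 270.1 and 357.8 CPM in Sertoli-like cells. Rhesus unnamed cluster 7 (576 cells) held the germ marker list (12 of 14 found) at 989.0 and 739.6 CPM, above every other rhesus class. In rhesus 2 it also held the erythroid list at 25805.0 CPM. The comparisons with named rhesus classes thus hold no germ-like class. In the baboon, unnamed cluster 7 (1155 cells, with INSL3 among its leading genes) held APOA1 at 139 and 312 CPM, where free RNA gave 47.0 and 29.5 CPM.

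Among rhesus endothelial-like cells of both animals, the 661 cells with UMIs of endothelial and no lymphoid markers held PRND at 729.6 CPM (95% Poisson interval 695.2 to 765.2) and APOA1 at 726.1 CPM. The 56 cells with lymphoid and no endothelial UMIs held 0 UMIs of PRND and APOA1 at 177.5 CPM.

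PRND was not alone in differing between Sertoli-like cells of the rhesus macaques. CST9L, a relative of CST3, was at 1.27 CPM in rhesus 1 and 568 CPM in rhesus 2, and the cathepsin gene CTSV at 56.8 and 1155 CPM, and both were chosen after their values were seen. SERPINA5, CLU and AARD differed by far less between the same animals.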
